A study of Homo sapiens with 12 samples.

Results

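The 276 H3K4me3 regions described here were those at which the metastasis-derived line METS exceeded its parental line DLD1 by at least 4-fold, out of 36400 regions counted in all. They were chosen on the METS and DLD1 values themselves, as regions whose log2 ratio of normalised read counts, with 0.5 added to each, was 2 or above. The unit throughout is CPM, counts per 1000000 counts of the library. They made up 0.758% of the regions, and only 14 regions were lower in METS by the same measure. Most were weak: their median was 3.29 CPM in METS, against a median of 15.7 CPM for all regions in that library. A small number were strong, led by 2 of the 3 regions in the gene body of the imprinted long noncoding RNA H19 and followed by regions at MAB21L4, RAP1GAP2, PLEC and S100A4.

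Chromatin of 4 human colorectal cancer lines was immunoprecipitated for H3K4me3, H3K27me3 and H3K79me3, with 1 library per line and mark. METS is a DLD1 derivative from a lung metastasis of a xenograft and is described as epithelial. SA, from colonies in soft agar, and SPH, from colonospheres, are DLD1 derivatives described as mesenchymal, and DLD1 is the epithelial parent. The sample titles call all 4 lines parental, so the lines are told apart here by name, description and characteristics. All lines were grown in the same medium with serum, and the labels do not say whether a line is a single clone. There were no replicates, so no test between lines was possible: differences between the lines cannot be told apart from differences between the libraries.

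H3K4me3 is laid down by SET1 and MLL complexes at the starts of active genes and of many genes poised for activity. H3K79me3 is written by DOT1L over the early part of transcribed gene bodies, and H3K27me3 is written by Polycomb repressive complex 2 over silenced chromatin. H19 is a maternally expressed imprinted RNA whose locus is active in the embryo and is reactivated in a number of tumours.

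The starts of 4 genes at which H3K4me3 was 4-fold higher and H3K79me3 was also higher in METS are printed from RefSeq (GRCh38.p14), as 250 bases before to 50 bases after the annotated start, on the gene's strand. The counted regions lay 215 bases from the body's start at INHBB and 346 at EIF5A2, but 2587 at JAG2 and 4319 and 5075 at S100A4. The body's start is the outer end of the gene body, which can differ from the annotated start that anchors a window. Distances to the annotated starts were not determined, nor whether a window overlaps a counted region. S100A4 encodes a calcium-binding protein long tied to metastasis, JAG2 a ligand of Notch receptors, INHBB a subunit of activin and inhibin, and EIF5A2 a translation factor. Capitals mark GC boxes (GGGCGG) and TATA boxes (TATAAA), searched on both strands, with overlapping matches counted.
S100A4, chromosome 1, minus strand: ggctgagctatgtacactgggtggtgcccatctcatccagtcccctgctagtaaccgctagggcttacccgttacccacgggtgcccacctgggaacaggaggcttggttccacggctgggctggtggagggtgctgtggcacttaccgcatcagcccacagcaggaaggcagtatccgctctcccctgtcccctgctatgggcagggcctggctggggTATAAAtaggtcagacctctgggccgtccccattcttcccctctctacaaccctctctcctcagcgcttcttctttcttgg
JAG2, chromosome 14, minus strand: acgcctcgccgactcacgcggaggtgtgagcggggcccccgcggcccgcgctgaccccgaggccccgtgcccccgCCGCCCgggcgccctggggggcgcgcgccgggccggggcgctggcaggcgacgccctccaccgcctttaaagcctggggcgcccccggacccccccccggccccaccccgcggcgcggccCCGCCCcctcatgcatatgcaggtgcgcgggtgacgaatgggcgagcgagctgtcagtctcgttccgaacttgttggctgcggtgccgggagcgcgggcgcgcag
INHBB, chromosome 2, plus strand: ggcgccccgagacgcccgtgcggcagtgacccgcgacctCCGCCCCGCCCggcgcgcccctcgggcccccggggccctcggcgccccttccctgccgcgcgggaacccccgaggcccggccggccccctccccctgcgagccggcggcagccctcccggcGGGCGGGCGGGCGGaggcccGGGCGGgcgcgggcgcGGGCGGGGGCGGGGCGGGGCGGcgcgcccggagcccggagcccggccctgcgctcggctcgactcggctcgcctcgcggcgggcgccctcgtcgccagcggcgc
EIF5A2, chromosome 3, minus strand: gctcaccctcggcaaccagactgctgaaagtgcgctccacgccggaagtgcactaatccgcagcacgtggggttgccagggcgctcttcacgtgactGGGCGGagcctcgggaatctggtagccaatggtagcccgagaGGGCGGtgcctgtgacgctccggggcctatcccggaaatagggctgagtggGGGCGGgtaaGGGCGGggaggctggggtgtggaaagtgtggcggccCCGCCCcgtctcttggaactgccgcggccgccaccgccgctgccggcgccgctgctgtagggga

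The S100A4 window held 1 TATA box and no GC box, with 8 CpG dinucleotides. INHBB held 10 GC boxes and 58 CpG, EIF5A2 held 5 and 28, and JAG2 held 2 and 46. Of 35116 windows of 300 bases in the same table, 44.95% held a GC box and 11.5% a TATA box, and the median was 14 CpG. The S100A4 window is thus poor in CpG beside the other 3. Its place on hg19, the build of the counts, was not determined, so these letters belong to the genes and not to the counted regions.

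MicroRNA genes lay at or beside a few of the regions, and their mature sequences are shown with the seed (bases 2 to 8) in capitals. MIR149 overlapped the region in GPC1, MIR135B lay 1152 bases from a region in LEMD1, and MIR4525 lay 438 bases from a region on chromosome 17. MIR675 is given because H19 is its host transcript. No seed was shared among the sequences shown, and chromatin counts give no microRNA level.
hsa-miR-149-5p: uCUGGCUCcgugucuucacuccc
hsa-miR-675-5p: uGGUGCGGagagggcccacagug
hsa-miR-135b-5p: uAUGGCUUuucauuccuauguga
hsa-miR-4525: gGGGGGAUgugcaugcugguu

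H3K4me3 libraries held 7303186 counts in METS, 7753937 in SA, 7153391 in SPH and 6722508 in DLD1. Those of H3K79me3, over 157878 regions, held 6165169 to 7521451 counts, and those of H3K27me3, over 50000 gene bodies on chromosomes 1 to 19, held 15605814 to 20410151. Each fold is a CPM ratio given with its exact 95% Clopper-Pearson interval; these intervals hold counting error alone, and a count of 0 was read as at most 3 counts. H3K4me3 at epithelial marker genes summed to 281 CPM in METS, 319 in SA, 301 in SPH and 291 in DLD1. Of these genes 5 of 8 could be named, and the region shared by KRT8 and KRT18 was added for each of them. The sums at mesenchymal markers (5 of 8, with FN1 and SPARC at 0 in every line) were 48.7, 42.9, 55.2 and 51.3 CPM in the same order, so neither list parted the lines along their descriptions.

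The 276 regions ranged in METS over 1.51 to 42.6 CPM, or 11 to 311 counts with a median of 24 counts. Of these, 61 reached 5 CPM, 20 reached 10 CPM and 5 reached 20 CPM. Their medians were 3.29 CPM in METS, 0.258 in SA, 0.280 in SPH and 0.149 in DLD1. All 276 intervals of the METS over DLD1 fold lay above 1 and 98 lay wholly above 4, as values used by the choice itself. No count at all was recorded in DLD1 at 102 of them, in SA at 60 and in SPH at 71. Together they held 0.130% of the H3K4me3 counts of METS, 0.0143% of SA, 0.0151% of SPH and 0.00815% of DLD1. Width did not set them apart, with a median of 436 bp against 433 bp for all regions.

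**Figure D1:**
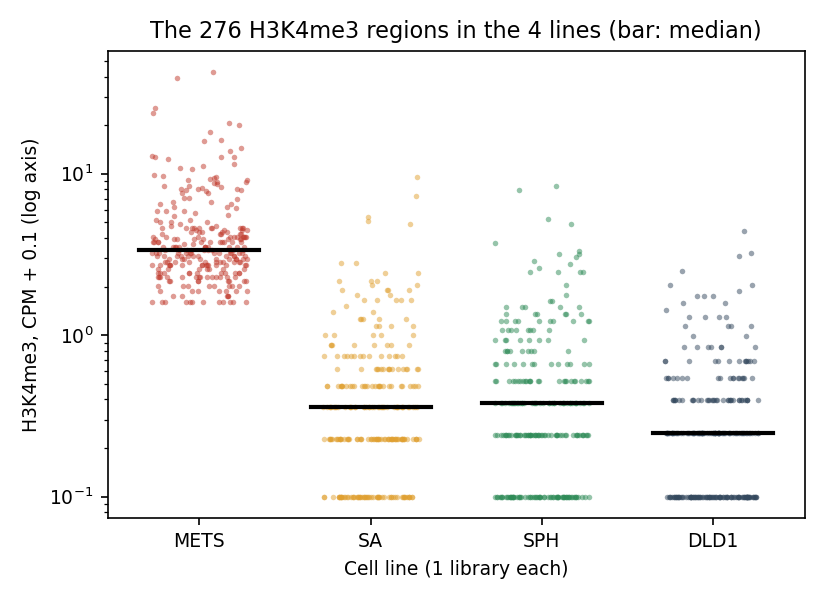
H3K4me3 in CPM plus 0.1 (log axis) at each of the 276 regions (points) in METS, SA, SPH and DLD1, 1 library each, with the median as a bar. The METS median sits at 3.29 CPM, and the medians of the other lines at 0.258, 0.280 and 0.149 CPM.

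At the threshold, 3 regions tied just inside with 24 counts in METS and 3 in DLD1 (log2 ratio 2.0). Just outside stood chr4:6696053-6696504, with 240 counts in METS, 39 in SA, 41 in SPH and 53 in DLD1 (log2 ratio 1.99), and regions with 15 counts in METS and 1 in DLD1 (1.98). A region far stronger than most of the 276 was thus left out by a small margin.

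H19 held the 2 strongest regions. The region chr11:2017963-2018424, inside the H19 body, had 42.6 CPM in METS, 0.129 in SA, 0.419 in SPH and 0.446 in DLD1, from 311, 1, 3 and 3 counts. Its fold of METS over DLD1 was 95.4 (32.4 to 465). Next to it, chr11:2018490-2018997 had 38.9, 0.645, 0.979 and 1.64 CPM in METS, SA, SPH and DLD1, and chr11:2017295-2017547 had 12.3, 0.129, 0 and 0.298 CPM. In all 3 regions METS alone was above 2 CPM. A further, weak region, chr11:2012304-2012739, lay in LINC01219 and had 20 counts in METS, 2 in SA, 0 in SPH and 1 in DLD1; these formed the longest run of the 276 regions within 10 kb of one another. The body of H19 spans chr11:2016406-2022700 on the minus strand, and the 3 regions lay 3703 to 5153 bases from its upstream end. That end can differ from the annotated start of H19, and the distance to the annotated start was not determined.

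S100A4 held a pair of regions inside its body, chr1:153516089-153522612. The region chr1:153517053-153517537 had 18.1 CPM in METS, 4.77 in SA, 3.08 in SPH and 2.38 in DLD1, a fold of 7.59 (4.51 to 13.7) over DLD1. The neighbouring chr1:153517862-153518293 had 14.4 CPM in METS, 1.68 in SA, 2.38 in SPH and 1.19 in DLD1, a fold of 12.1 (5.91 to 28.7). METS was highest at both, and the other lines were low but above 0. Bodies of S100A3 and S100A5, calcium-binding relatives, also lie within 5 kb.

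RAP1GAP2 and DENND1A, both regulators of small GTPases, each held a strong region. They are set side by side with their values known, and the share of such regulators among all named genes was not counted. At RAP1GAP2, an activator of GTP hydrolysis by RAP1, chr17:2878865-2879378 had 20.4 CPM in METS, 2.06 in SA, 0.140 in SPH and 0.446 in DLD1. The region lay deep inside the body, 198515 bases from its start, and was near 0 in SPH and DLD1. A second, weaker region in the same body, chr17:2718072-2718500, had 6.98 CPM in METS and lay 37722 bases from the start. DENND1A, an exchange factor for RAB35, had 13.7 CPM at chr9:126665667-126666100 in METS and 0.645, 0.699 and 0.744 CPM in SA, SPH and DLD1. Of all 27316 genes that could be named, 171 (0.626%) had a region of the 276 within 5 kb. From a cytolinker and actin list of 8 genes 7 could be named and 1 (PLEC) had one, and from a list of 14 imprinted genes, without IGF2R, 10 could be named and 1 (H19) had one. Both lists were drawn up with these regions known.

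PLEC encodes plectin, which links intermediate filaments to actin and to adhesion sites. Its region chr8:145019978-145020506 had 19.9 CPM in METS, 0.645 in SA, 0.140 in SPH and 0.446 in DLD1, 44.5-fold over DLD1 (14.9 to 218). MAB21L4 at chr2:241834842-241835447 had 25.5 CPM in METS, 9.41 in SA, 8.25 in SPH and 4.31 in DLD1, 5.90-fold over DLD1 (3.98 to 9.06). PLEC was near 0 in all lines but METS, and MAB21L4 was graded, with DLD1 lowest.

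Among the other named regions, BMP3, a ligand of the TGF-beta family, had 12.7 CPM in METS, 1.55 in SA, 0 in SPH and 0.595 in DLD1 at chr4:81951939-81952383. GPC1, a heparan sulfate proteoglycan of the cell surface, had 9.72 CPM in METS, 0.903 in SA, 0.419 in SPH and 1.64 in DLD1 at chr2:241395033-241395529, which also lies 602 bases from the start of GPC1-AS1. JAG2 had 8.22 CPM in METS, 2.71 in SA, 2.66 in SPH and 1.49 in DLD1 at chr14:105631949-105632574. In each of these METS was highest, and only JAG2 was above 2 CPM in SA and SPH. INHBB, 215 bases from its start, had 6.57 CPM in METS, 0.774 in SA, 0 in SPH and 1.19 in DLD1 at chr2:121103934-121104256. SEMA3F, a secreted guidance factor, had 8.08 CPM in METS, 2.06 in SA, 1.54 in SPH and no count in DLD1 at chr3:50194170-50194539, which puts METS at least 18.1-fold higher, taking 3 counts for DLD1 and the METS count as exact; the lower end of the interval is 14.3-fold. EIF5A2, 346 bases from its start, had 7.53 CPM in METS, 0.387 in SA, 0.419 in SPH and 0.446 in DLD1 at chr3:170626828-170627191. INHBB thus reached 0 counts in SPH, SEMA3F only in DLD1, and EIF5A2 stood at 3 counts in each of the other lines.

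Several other regions above 10 CPM in METS had no named gene within 5 kb. At chr21:44499956-44500426 there were 115 counts in METS, 4 in SA, 2 in SPH and 1 in DLD1. At chr6:49764777-49765195 there were 92, 1, 0 and 1 counts in METS, SA, SPH and DLD1, and at chr6:86767268-86767706 there were 92, 0, 1 and 6. These lay near 0 outside METS, unlike chrX:153029717-153030308 with 16.0 CPM in METS, 5.29 in SA, 5.17 in SPH and 2.98 in DLD1.

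**Figure D2:**
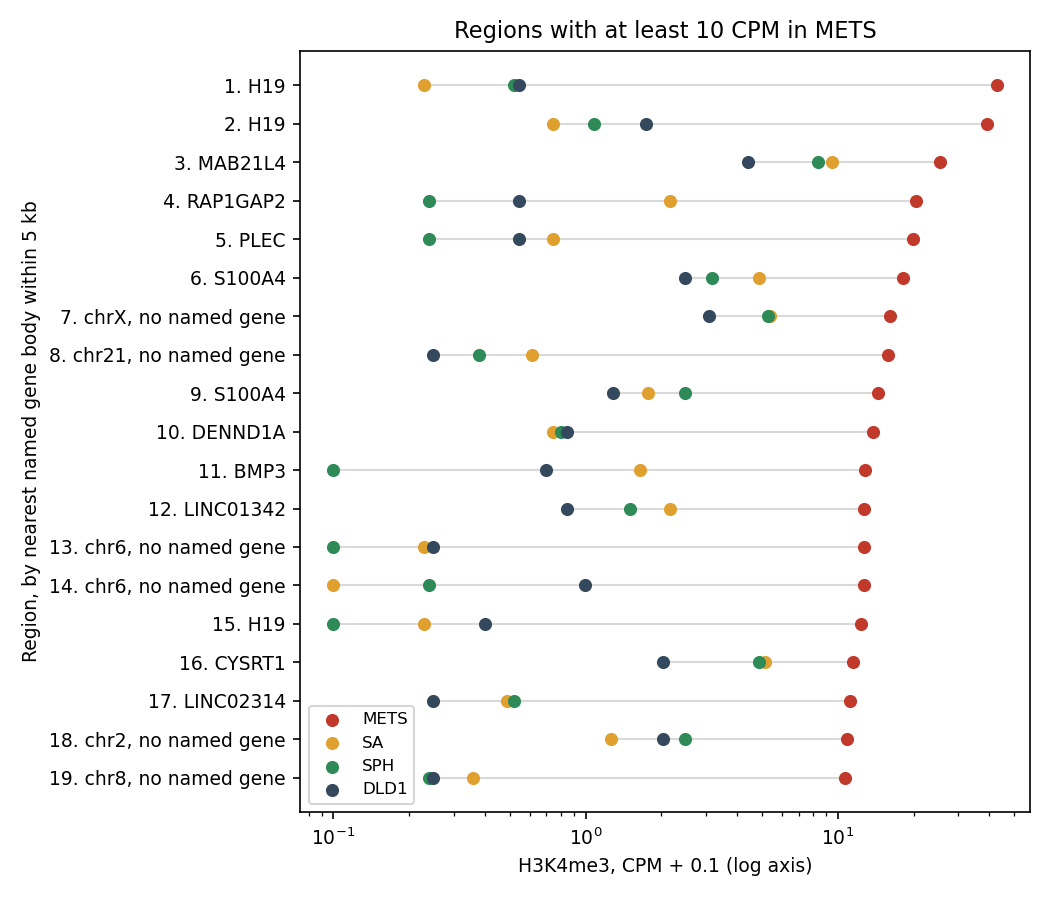
H3K4me3 in CPM plus 0.1 (log axis) at 19 of the 20 regions with at least 10 CPM in METS, ordered by METS, with 1 point per line. Regions beyond chromosome 19 could not be named. METS is the rightmost point in every row; MAB21L4 has SA and SPH between METS and DLD1, and the H19 regions have the other 3 lines at or below 1.64 CPM.

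METS was the highest of the 4 lines at 275 of the 276 regions, against 25.7% of all regions. This comparison uses the METS library that chose the regions, as does the next. METS was at least 4-fold over SA at 197 of them (1.03% of all regions), over SPH at 175 (1.76%) and over both at 154 (0.728%). SA and SPH reached a median of 6.98% and 7.04% of the METS value, and 226 regions lay below 1 CPM in both. SA was at least 2-fold over DLD1 at 26 (0.527% of all regions) and SPH at 36 (3.58%), a comparison that uses the DLD1 library, chosen low here. They were at least 2-fold under DLD1 at 2 (2.1% of all regions) in SA and at 9 (3.34%) in SPH. The 4-fold mark over DLD1 was reached by SA at 2 of the regions (0.00549% of all regions) and by SPH at 3 (0.0412%). These were SEMA3F in both lines, CALML4 in SPH alone, and in both lines a region in RASA3, named with its values known, where chr13:114812985-114813401 had 18 counts in METS, 13 in SA, 18 in SPH and 0 in DLD1.

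SPH against SA used neither library of the choice. SPH was at least 2-fold over SA at 8 of the 276 regions (3.02% of all regions) and at least 2-fold under it at 11 (1.23%). The median log2 ratio of SPH to SA was 0.02 over the 276 regions and 0.04 over all regions. Most of the regions were too weak in both lines for this to show a difference: their medians, 0.280 CPM in SPH and 0.258 in SA, were below the 3-count floors of 0.419 and 0.387 CPM.

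All regions were ranked by the mean of SA and SPH and cut into 10 equal bins. Of the 276 regions, 235 fell in the lowest bin, 35 in bin 2, 3 each in bins 3 and 4, and 0 above. The lowest bin as a whole, 3640 regions of at most 0.930 CPM in that mean, held 0.374% of the METS counts, 0.0916% of SA, 0.0917% of SPH and 0.158% of DLD1. These shares include the 235 regions chosen as high in METS and low in DLD1. Without them the bin held 0.277% of the METS counts, 0.0859% of SA, 0.0854% of SPH and 0.154% of DLD1, and whether the difference between METS and DLD1 belongs to the line or to the library was not tested. In bin 2, with its 35 chosen regions included, METS was also above DLD1, at 0.970% against 0.799%, with SA at 0.609% and SPH at 0.736%. In bins 3 and 4 the METS shares were below those of DLD1, at 1.43% against 1.45% and at 2.38% against 2.57%. SA and SPH are low in the lowest bin because they defined it.

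**Figure D3:**
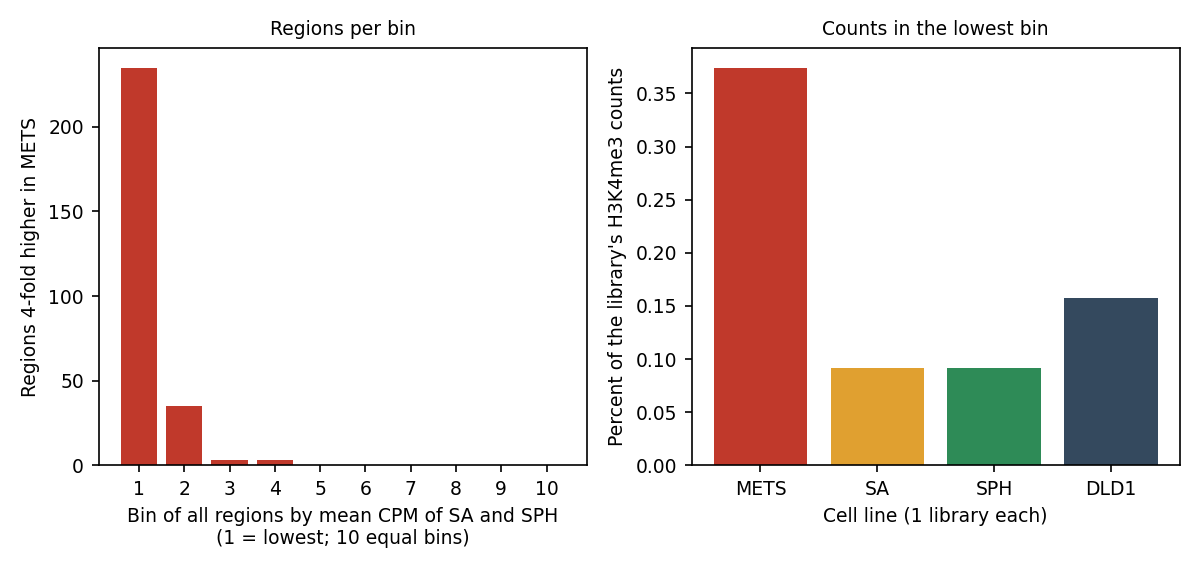
Left, the number of the 276 regions in each of 10 equal bins of all 36400 regions, ranked by the mean CPM of SA and SPH, with 235 in the lowest bin. Right, the percent of each library's H3K4me3 counts in that lowest bin, 0.374% in METS and 0.158% in DLD1.

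Gene bodies of the H3K27me3 table, on chromosomes 1 to 19, placed 252 of the regions. Within 2 kb of either end of a gene body lay 61 regions (24.2%), against 61.6% of the other H3K4me3 regions. A further 111 (44.0%, against 19.9%) lay inside a body farther from its ends, and 80 (31.7%, against 18.5%) were in neither place. Only the outer ends of bodies were used, so a region at a transcript start within a body counts as inside it. How many of the 111 lie at such starts was not determined. Only 25 (9.92%, against 38.5%) lay within 2 kb of a named start with a known strand. The METS median was 4.24 CPM at body ends and 3.15 CPM elsewhere. Among regions of at least 5 CPM in METS, 26 of 58 were at an end, and among weaker ones 35 of 194.

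The regions were also sparse. Another H3K4me3 region lay within 5 kb of 73 of them (26.4%), against 66.6% of the other regions, and 28 stood in 13 runs with gaps of at most 10 kb. The 94 neighbours that were not themselves 4-fold higher had a median log2 ratio of METS to DLD1 of 0.32, and 19 of them were at least 2-fold higher (3.91% of all regions) and 1 at least 2-fold lower (1.09%). Over chromosomes 1 to 22 and X the share of regions chosen ran between 0.362% on X and 1.22% on 20, with 32 regions on chromosome 2.

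**Figure D4:**
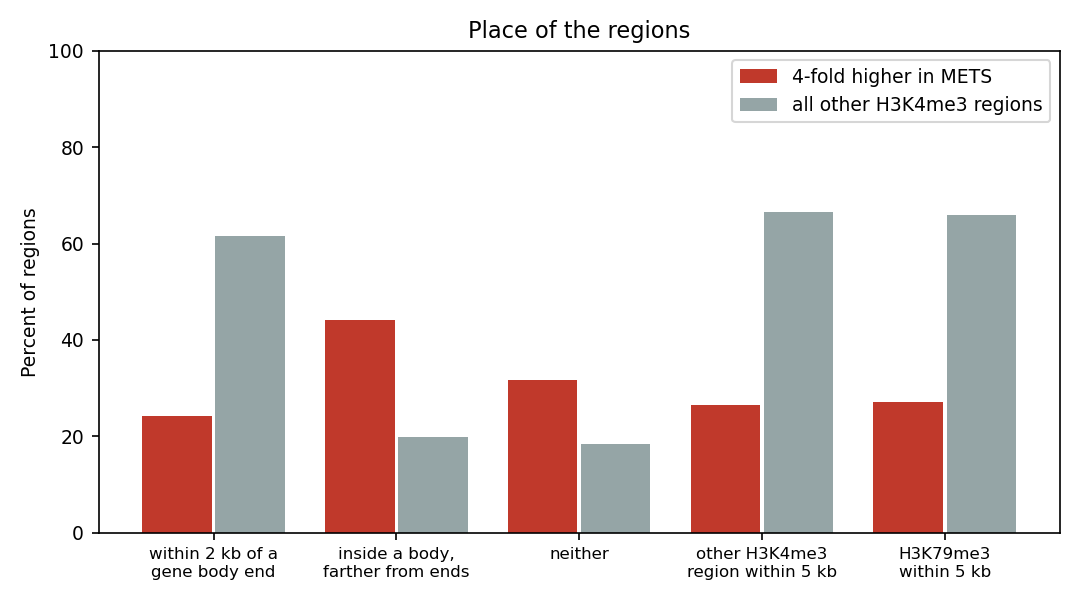
Percent of the regions 4-fold higher in METS and of all other H3K4me3 regions at each place; the first 3 pairs cover chromosomes 1 to 19. Bars for body ends stand at 24.2% and 61.6%, and bars for H3K79me3 within 5 kb at 27.2% and 66.0%.

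H3K79me3, a separate set of libraries, was read within 5 kb of 75 of the 276 regions (27.2%), against 66.0% of the other regions. Of 310 distinct H3K79me3 regions there, 111 exceeded DLD1 by 2-fold or more in METS (35.8%, against 7.14% of all H3K79me3 regions) and 7 at least 2-fold lower (2.06% of all). The median log2 ratio was 0.63, against 0.04 near other H3K4me3 regions. SA was at least 2-fold over DLD1 at 5 of the 310 (1.08% of all) and at least 2-fold under it at 20 (2.3%), and SPH at 45 (3.03%) and 23 (5.11%), with median log2 ratios of -0.06 and 0.04. METS was the highest line at 185 of the 310 (36.6% of all). Neighbouring H3K79me3 regions share a gene and are not independent.

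Summed over each of 66 places, H3K79me3 was higher in METS than in DLD1 at 53, with an interval above 1 at 39 and below 1 at 4. For SA against DLD1 the intervals were above 1 at 4 places and below 1 at 11, and for SPH at 13 and 11. Counted by H3K4me3 region, 48 of the 75 (64.0%) had H3K79me3 with an interval above 1, against 26.6% of 23852 other regions. Among those of at least 5 CPM in METS this held for 26 of 29, and among weaker ones for 22 of 46. At body ends it held for 20 of 23, and elsewhere for 24 of 47.

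H19 again stood out, with 72.6 CPM of H3K79me3 in METS, 0.962 in SA, 0.811 in SPH and 2.13 in DLD1, a fold of 34.1 over DLD1 (20.8 to 60.2). S100A4 had 10.3 CPM in METS, 0.550 in SA, 0.973 in SPH and 0.399 in DLD1, 25.7-fold (8.43 to 128). These S100A4 values rest on 66, 4, 6 and 3 counts in the same order, so DLD1 stood at the 3-count floor. JAG2 had 227 CPM in METS, 53.3 in SA, 91.6 in SPH and 49.2 in DLD1, 4.62-fold (4.12 to 5.19). At each of these genes, METS was highest in both active marks. GPC1 had 57.1 CPM in METS, 9.76 in SA, 17.5 in SPH and 14.4 in DLD1, and INHBB had 49.6, 11.3, 3.57 and 17.0 CPM in METS, SA, SPH and DLD1. A place on chromosome 7 outside the gene bodies of the table, chr7:16956489-16956884, had 61.2 CPM in METS, 5.36 in SA, 3.08 in SPH and 14.1 in DLD1. These last had SA and SPH at or below DLD1, apart from GPC1 in SPH.

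At other genes SA or SPH came near or above METS in H3K79me3, or METS and DLD1 differed little. MAB21L4 had 67.9 CPM in METS, 25.02 in SA, 62.0 in SPH and 19.8 in DLD1, and PLEC had 98.6, 44.3, 91.2 and 45.5 CPM in the same order, so SPH stood close to METS at both. SEMA3F had 52.7 CPM in METS, 42.1 in SA, 145 in SPH and 31.4 in DLD1. DENND1A had 12.6 CPM in METS and 13.6 in DLD1, 0.928-fold (0.685 to 1.26). RAP1GAP2 and BMP3 had no H3K79me3 region within 5 kb of the regions above. Named with their values known, AHR, the aryl hydrocarbon receptor, and RORA, a nuclear receptor, ran the other way, with 319 CPM in METS and 399 in DLD1 and with 81.6 and 145 CPM. Also named with its values known, chr2:199181839-199182263 had 18 H3K4me3 counts in METS, 0 in SA, 10 in SPH and 0 in DLD1, beside 52.1 CPM of H3K79me3 in METS, 2.06 in SA, 24.5 in SPH and 1.73 in DLD1.

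**Figure D5:**
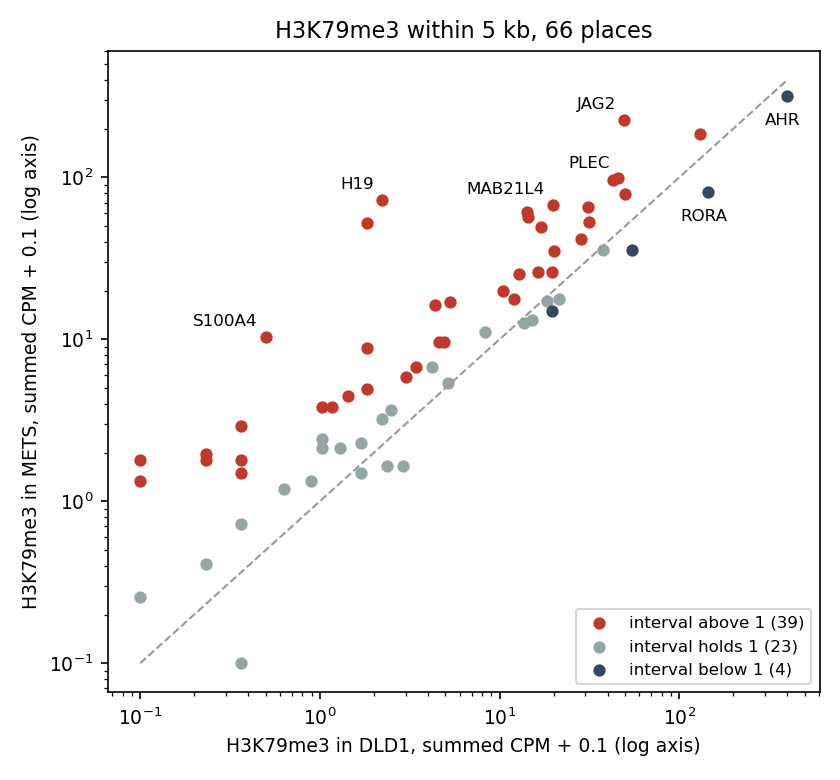
H3K79me3 summed within 5 kb of the regions at each of 66 places, in CPM plus 0.1 (log axes), METS against DLD1; the dashed line marks equal values. The fold interval lies above 1 at 39 places, among them H19 and JAG2, and below 1 at 4, among them AHR and RORA.

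H3K27me3 was counted over 170 gene bodies that hold the regions, some of which overlap and share reads. Their median log2 ratio of METS to DLD1 was -0.11, against -0.04 over 15605 bodies holding only other H3K4me3 regions. In SA the same 170 bodies had a median of -0.22 (-0.20 over the other bodies) and in SPH of -0.19 (-0.12). In METS 125 of the 170 were lower (73.5%, against 57.1% of the other bodies). The interval lay below 1 at 59 (34.7%, against 14.2%) and above 1 at 22 (12.9%, against 8.59%). The H19 body had 45 counts in METS, 82 in SA, 66 in SPH and 66 in DLD1, or 0.525 times DLD1 in CPM (0.351 to 0.778), and JAG2 had 70, 95, 88 and 91 counts, or 0.592 times (0.427 to 0.817). S100A4 ran the other way with 34 counts in METS and 20 in DLD1, within counting error at 1.31 times (0.732 to 2.40). RAP1GAP2 was higher in METS beyond counting error, with 2597 counts in METS and 1562 in DLD1, or 1.28 times (1.20 to 1.36). Bodies at least 2-fold higher numbered 1 (LINC02035, 0.488% of all bodies) and those at least 2-fold lower 3 (COL24A1, ADAMTS6 and ZSCAN31, 0.738%). Counts cover whole bodies and not the regions alone, and these bodies had a median length of 98346 bp, against 28868 bp for bodies holding only other regions.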

How the data were processed

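Chromatin immunoprecipitation sequencing of 3 marks in 4 lines gave 12 libraries. The deposited values are unnormalised read counts: whole numbers whose totals differ between libraries, over the same regions in the 4 lines of a mark. Per the labels, precipitation and library preparation used a Diagenode kit. The build was hg19 per the submitters' processing notes. The aligner, region caller, counting program and input are not given in the sources used here. The H3K27me3 table was held in part: a note states that 7773 rows were skipped.

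Counts were divided by column totals to CPM. The 276 regions, the gene lists and the rule for named regions were chosen with earlier results of these data known. That rule took regions of at least 10 CPM in METS, in runs within 10 kb, with H3K79me3 at least 2-fold higher on 20 or more counts, or with SA or SPH 4-fold over DLD1; 69 met it and the 40 highest in METS were kept, of which the text describes the main ones. A named region and a gene list that it belongs to are not reported here. The splits at 5 CPM, the bins of all regions, the neighbours, the H3K79me3 sums over places and the promoters and microRNAs shown were chosen after the values were seen.

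No annotation on hg19 was used. Gene bodies are the rows of the H3K27me3 table, named by matching the spacing between gene ends to that of RefSeq genes (GRCh38.p14), with at least 5 ends sharing a spacing. This named 27598 of 50000 rows (55.2%): 6320 by both ends, 9152 by 1 end and 12126 by overlap alone. The settings of this match were adjusted after seeing which regions were named (an allowance of 10 bases at an end was added so that S100A4 matched), its error rate was not measured, and gene names rest on it. Distances to a start run to the outer end of the gene body on that side, which can differ from the annotated start. No converted coordinate is printed.

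Folds are CPM ratios with exact 95% Clopper-Pearson intervals conditional on the summed count. Reads carry no molecular identifiers, and both the intervals and the floor of 3 counts hold counting error alone. With 1 library per line and mark no p-value was computed. Alternatives were TMM factors (edgeR 4.0.16), DESeq2 1.42.0 size factors, quantile normalization, added values of 0.1 and 1 CPM, a filter at the median, and other folds and distances. Scripts ran in Python 3.11.15 with pandas 2.3.3, NumPy 2.4.6, SciPy 1.17.1 and matplotlib 3.10.9, and in R 4.3.3, and were tested on simulated data.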

Additional observations from a re-analysis of the deposited data

How the results depend on the processing

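Of 68 alternative values computed, 40 stayed within the limits set for them and 28 moved. A reversal was defined only for the H3K27me3 median log2 ratio, which stayed negative in each alternative. The counts, shares and CPM medians could not reverse. The number of regions 4-fold higher in METS was 276 and moved to 695 with 0.1 CPM added, 98 with 1 CPM added, 7 where the higher of METS and DLD1 had to reach the pooled median, 503 at 3-fold and 44 at 8-fold, so it rests on the added value and the threshold; TMM, DESeq2 and quantile scaling left it within 1.5 times. METS was highest at 100% of the regions under TMM, DESeq2, 1 CPM added, the filter and 8-fold, at 95.3% with 0.1 CPM added and at 97.2% at 3-fold. The SA median was 2.06 CPM under the filter. The share at a gene body end was 71.4% under the filter, 34.9% at 8-fold, 19.05% within 1 kb and 34.1% within 5 kb. The share with H3K79me3 was 85.7% under the filter, 40.9% at 8-fold, 18.8% within 1 kb and 42.8% within 20 kb. The share of nearby H3K79me3 regions past the fold was 24.8% with 0.1 CPM added (11.9% of all H3K79me3 regions), 53.6% under the filter, 25.5% and 42.4% for regions 3-fold and 8-fold higher, 48.4% within 1 kb, 24.2% within 20 kb and 51.9% at 1.5-fold (19.9% of all). The cause of these moves was not tested. No paired analysis was possible because each line has 1 library per mark, and no library could be left out of a comparison. Most of the regions rest on few counts: 24 in METS at the median.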

Other observations

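The IGF2R body on chromosome 6 held 2 weak regions, named here with their values known. The region chr6:160417322-160417789 had 17 counts in METS, 2 in SA, 1 in SPH and 0 in DLD1, and chr6:160425321-160425754, near the antisense RNA AIRN, had 16, 1, 1 and 0. H3K79me3 within 5 kb of both regions summed to 96.5 CPM in METS, 41.1 in SA, 47.7 in SPH and 42.9 in DLD1, 2.25-fold over DLD1 (1.96 to 2.58). It was 1.61-fold (1.35 to 1.93) at the first region and 3.34-fold (2.73 to 4.10) at the AIRN region. LPAR5, a receptor for lysophosphatidic acid, had 9.04 CPM of H3K4me3 in METS, 1.16 in SA, 2.80 in SPH and 1.64 in DLD1, and no H3K79me3 region within 5 kb.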
